A study of Mus musculus with 4 samples.

Results

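The genes that encode the matrix metalloproteases (MMPs), their tissue inhibitors (TIMPs), the ADAMTS proteases and the ADAMTS-like proteins were examined in RNA-seq data of the embryonic mouse kidney. Members were the protein-coding genes whose mouse symbol starts with Mmp, Timp, Adamts or Adamtsl followed by a digit, a rule that uses no measured value. The rule found 50 genes among the 52636 gene identifiers counted: 22 Mmp, 19 Adamts, 5 Adamtsl and 4 Timp genes. Mmp1a also bears such a symbol but is annotated as a polymorphic pseudogene and was left out. It had no read in any library.

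RNA was taken from tdTomato+ cells sorted by FACS from kidneys at E12.5–E12.75, 48 h after tamoxifen was first given, with 5000 cells per library. The 2 Control libraries came from Eya1CreER;tdTomato embryos and the 2 Eya1cKO libraries from Eya1CreER;Eya1 fl/fl;tdTomato embryos. In both genotypes CreER was expressed from the Eya1 locus, so the controls carried the Eya1CreER allele and received tamoxifen too, and the sorted population was the one in which that locus had been active. The cell suspensions were combined before the sort and the libraries of a genotype were separate portions of cells sorted at the same time, so the p-values below measure the spread between these portions, which may be largely technical.

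MMPs are zinc-dependent proteases that cut collagens and other matrix proteins, and are made as inactive proenzymes. Some are secreted and others are held at the cell surface, where MMP14 is known to activate MMP2 with TIMP2 as a bridge. ADAMTS proteases are secreted and bind to the matrix; they include cleavers of versican and aggrecan, the procollagen N-proteinases, and enzymes that act on fibrillin microfibrils. ADAMTS-like proteins lack the protease domain. TIMPs block the active site of MMPs, and TIMP3, which stays bound to the matrix, also inhibits several ADAM and ADAMTS proteases. In the developing kidney these proteins take part in the growth and branching of the ureteric bud and in the turnover of basement membrane around forming nephrons.

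Gene counts totalled 35411905 and 37999342 reads in the controls and 22239293 and 17457452 in the shallower Eya1cKO libraries. Reads that lay on no gene were 12.9% to 13.9% of the recorded reads in the controls and 20.9% to 22.7% in Eya1cKO, unaligned reads 6.32% to 6.69% and 12.7% to 12.9%, and 26486 to 27091 and 20538 to 21455 genes were detected. Eya1 itself had 6612 and 6420 reads in the controls and 377 and 219 in Eya1cKO, and its level in Eya1cKO was 8.08% of control. Summed levels of cell type markers, in CPM (reads scaled to a common library total), moved with genotype. The 8 nephron progenitor markers summed to 1726 to 1735 CPM in the controls and 341 to 366 CPM in Eya1cKO, with 8 of 8 lower. This list and its sum include Eya1, the deleted gene (mean of 180 CPM in the controls and 14.6 CPM in Eya1cKO). Higher in Eya1cKO were 6 of 7 podocyte markers (858 to 882 against 2600 to 2688 CPM), 8 of 8 endothelial markers (660 to 676 against 1185 to 1228 CPM), 5 of 8 stromal markers with 1 lower (1713 to 1725 against 3511 to 3526 CPM), 6 of 6 adrenal cortex markers (11.4 to 18.7 against 653 to 677 CPM) and 6 of 7 chromaffin and sympathetic markers (33.9 to 40.4 against 535 to 551 CPM). Within the stromal sum Col3a1 went from a mean of 964 to 2422 CPM and made up most of the rise. Col3a1 is also in the procollagen list below. Of 8 ureteric bud markers 2 were lower (274 to 290 against 167 to 174 CPM), and of 8 macrophage markers none passed the test (132 to 138 against 133 to 160 CPM) at an adjusted p, with 2 at an unadjusted p under 0.05. The remaining lists were low: 1 of 5 muscle markers (Acta2; 23.6 to 24.6 against 42.0 to 45.5 CPM) and 1 of 6 Schwann markers (Sox10; 26.4 to 28.01 against 28.7 to 32.2 CPM) were higher, neutrophil and mast cell markers summed to 1.20 to 7.85 CPM with Ly6g at 0 reads, and erythroid markers to at most 0.748 CPM with Hba-a1 and Hbb-bh1 at 0. The part of these lists in the differences below was not tested, and in RNA of pooled cells fewer cells of a type and less RNA per cell cannot be told apart.

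In all, 5 members were higher in Eya1cKO and none was lower. The 5 were Timp3, the matrix-bound inhibitor, Mmp23, a membrane-anchored protease, and the ADAMTS genes Adamts1, Adamts2 and Adamts6. Of the 50 members 38 passed the filter on low counts and were tested (edgeR's quasi-likelihood test, Benjamini-Hochberg adjustment over 19041 genes, adjusted p under 0.05), so 13.2% of the tested members were higher, where 5.15% of all tested genes were. Lower calls took 4.41% of all tested genes and 0 of 38 members; no member had an unadjusted p under 0.05 in that direction, and DESeq2 gave 0 as well. At an unadjusted p under 0.05, 13 members (34.2%) were higher, the 5 included, against 14.2% of all tested genes.

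The fitted log2 fold change (Eya1cKO over Control) was above 0 for 33 of the 38 and below 0 for 5, with a median of 0.48 and a range of -0.85 to 2.78, where the median of all tested genes was 0.02 and 51.1% were above 0. Both Eya1cKO libraries stood above both controls for 24 of the 38 members (25.3% of all tested genes did) and below both for 2, Adamts17 and Adamts19 (30.0% of all tested genes did). Among the 27 members with a mean of at least 10 CPM the median was 0.41, and among all 10407 genes at such a level it was -0.01, with 7.62% called higher. These counts describe the members that passed the filter and not all 50.

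With control 1 or control 2 left out no member passed (6 and 5 had an unadjusted p under 0.05), and 23 of all genes did in either fit, and the log2 fold changes of the 5 members were then 1.52 and 1.40 for Timp3, 1.86 and 1.90 for Mmp23, 0.87 and 0.87 for Adamts1, 1.28 and 1.10 for Adamts6 and 1.70 and 1.56 for Adamts2. With Eya1cKO 1 left out 15 members were higher and 1 lower, and with Eya1cKO 2 left out 19 were higher and 2 lower, the 5 members named above included each time. Calls over all genes grew as well, to 4143 higher (18.7% of those tested) and 3271 lower without Eya1cKO 1 and to 4443 higher (19.8%) and 3482 lower without Eya1cKO 2. By construction each of these fits takes its spread from the 1 genotype that still has 2 libraries.

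**Figure D1:**
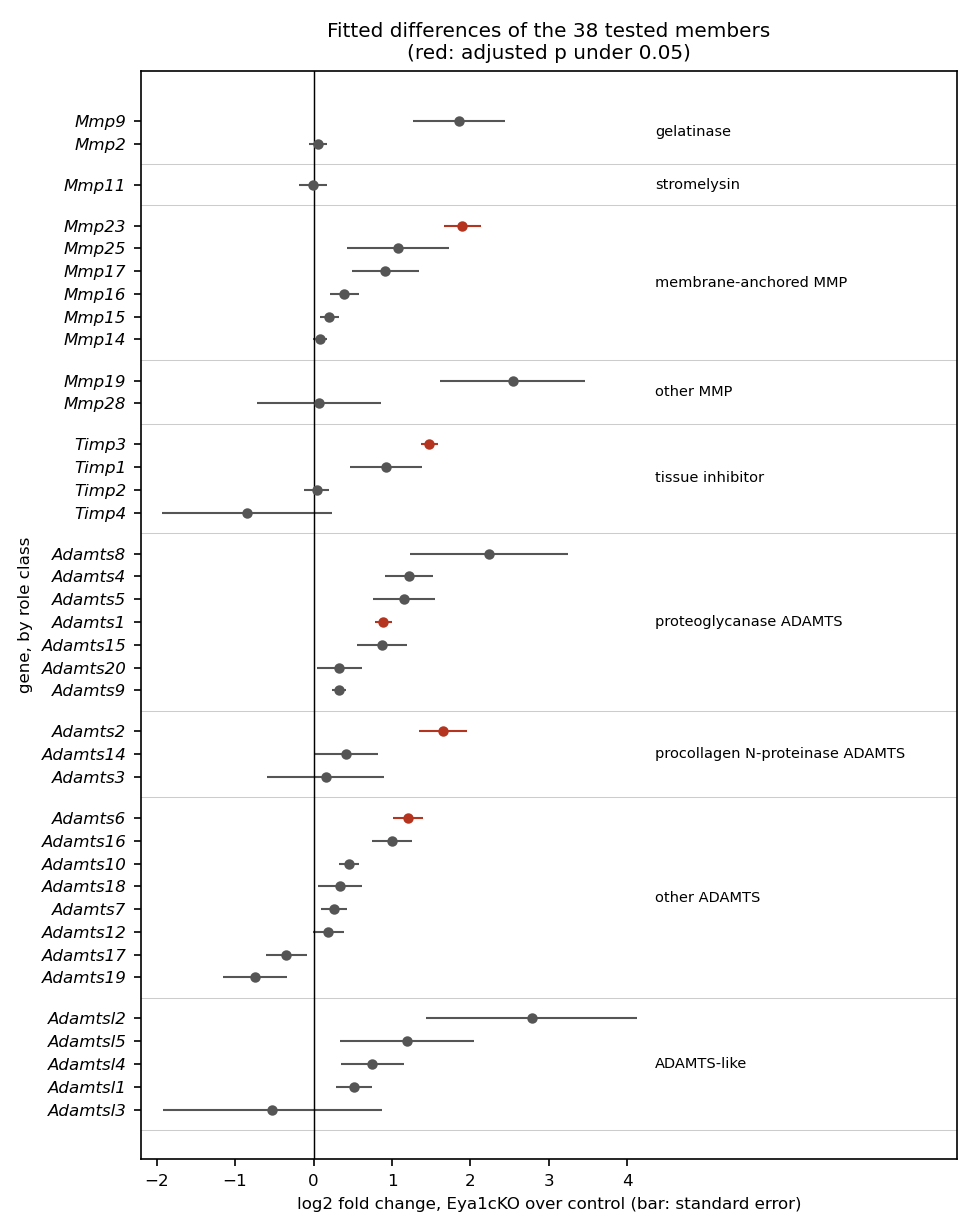
Fitted log2 fold changes of the 38 tested members (x axis, Eya1cKO over Control; bars are standard errors), grouped by role class, with the 5 that passed the adjusted threshold in red. Most points lie to the right of 0, and the widest bars belong to genes of few reads such as Adamtsl2, Adamtsl3 and Timp4.

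Timp3 (chr10:86300372-86349506, plus strand, mm10) had the smallest p of the members. It had 2671 and 2627 reads in the controls and 4754 and 3453 in the shallower Eya1cKO libraries, or 76.5 and 70.2 CPM against 210 and 197 CPM. Both Eya1cKO libraries were far above both controls and the libraries of each genotype were close. The level rose 2.78-fold, from 73.3 ± 4.48 to 204 ± 9.58 CPM (SD, n = 2 each), a log2 fold change of 1.48 (SE 0.11, adjusted p = 0.000916, edgeR). Exons of Syn3 on the opposite strand cover 21.3% of the exonic length of Timp3; Syn3 had 242, 191, 323 and 190 reads in control 1, control 2, Eya1cKO 1 and Eya1cKO 2, and whether the counting used strand is not given in the sources used here.

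The other inhibitors gave no call. Timp2, the partner of Mmp14 in the activation of Mmp2, stood at 184 and 182 CPM in the controls and at 156 and 225 CPM in Eya1cKO. The Eya1cKO libraries fell on either side of the controls, and the log2 fold change was 0.04 (SE 0.16, adjusted p = 0.90). Leaving out an Eya1cKO library gave calls in opposite directions: -0.25 without Eya1cKO 2 (adjusted p = 0.022, edgeR) and 0.29 without Eya1cKO 1 (adjusted p = 0.0063, edgeR). Timp1, a soluble inhibitor of many MMPs, measured 4.30 and 5.39 CPM against 8.63 and 9.98 CPM (log2 fold change 0.92, SE 0.46, adjusted p = 0.24), with no overlap of the genotypes. Timp4 was detected at 2.43, 0.507, 1.15 and 0.342 CPM, and the genotypes overlapped (log2 fold change -0.85, SE 1.08).

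The make-up of the inhibitor pool is given as a description, with no test. Levels of different genes were compared per exonic kilobase, and on that scale Timp3 made up 15.2% and 14.0% of the summed Timp level in the controls and 34.0% and 25.9% in Eya1cKO. Timp2 made up 76.4% and 76.0% in the controls and 52.9% and 62.0% in Eya1cKO. It was the most abundant inhibitor in each of the 4 libraries. The summed Timp level was 62.0 and 61.6 CPM per kilobase in the controls and 75.9 and 93.3 in Eya1cKO.

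**Figure D2:**
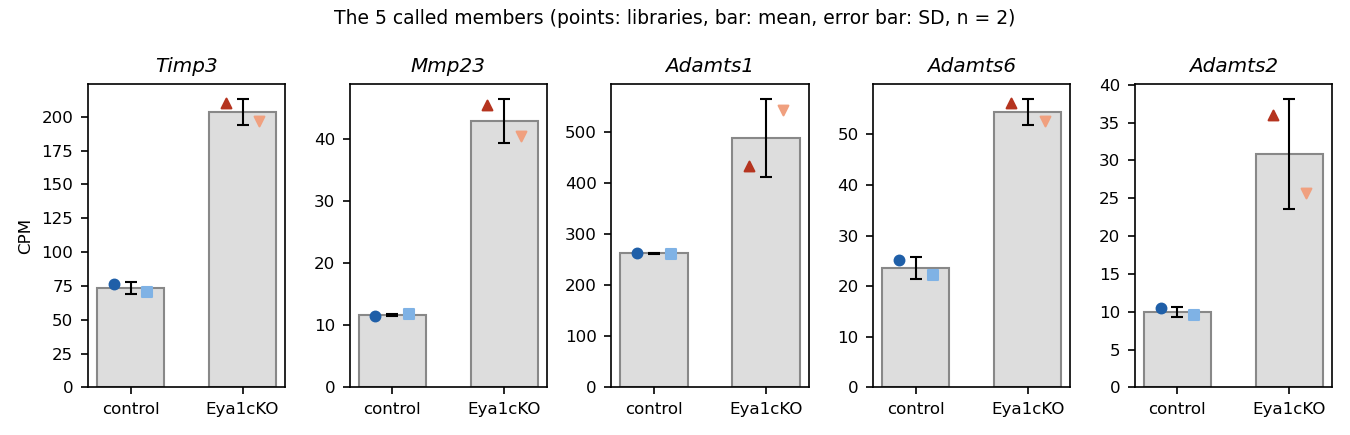
CPM of the 5 members that were higher in Eya1cKO, with 1 point per library (circle, control 1; square, control 2; upward triangle, Eya1cKO 1; downward triangle, Eya1cKO 2), bars for the mean and error bars for the SD (n = 2). In each panel both Eya1cKO points lie above both control points, and Adamts1 and Adamts2 show the widest gap between their Eya1cKO libraries in proportion to the mean.

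Of the membrane-anchored proteases only Mmp23 was called, and the abundant Mmp14 did not separate the genotypes. Mmp23 (chr4:155650655-155653384, minus strand) encodes a short enzyme that lacks the hemopexin domain of most MMPs. It had 401 and 440 reads in the controls and 1027 and 710 in Eya1cKO, or 11.5 and 11.8 against 45.4 and 40.5 CPM. The gap between genotypes was many times the gap within either. It rose 3.72-fold, from 11.6 ± 0.19 to 43.0 ± 3.52 CPM (SD, n = 2 each; log2 fold change 1.89, SE 0.24, adjusted p = 0.0059, edgeR).

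Mmp14, the activator of Mmp2, measured 360 and 372 CPM in the controls and 414 and 361 CPM in Eya1cKO, so that Eya1cKO 2 lay between the controls (log2 fold change 0.09, SE 0.09, adjusted p = 0.56). Mmp15, a close relative, measured 90.2 and 90.9 against 109 and 98.6 CPM (0.20, SE 0.12, adjusted p = 0.31). Mmp16, another transmembrane type, measured 32.4 and 31.9 against 42.0 and 42.4 CPM (0.39, SE 0.18, adjusted p = 0.21). For Mmp15 and Mmp16 both Eya1cKO libraries were above both controls by an amount the test did not call. Mmp17, which is held by a lipid anchor, measured 8.88 and 8.12 against 11.3 and 21.8 CPM (0.91, SE 0.43, adjusted p = 0.21), with Eya1cKO 2 well above the rest. Mmp25 had between 63 and 132 reads per library (1.08, SE 0.65).

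Of the gelatinases, which cut denatured collagen and type IV collagen, the abundant Mmp2 did not separate the genotypes. It measured 209 and 211 CPM in the controls and 242 and 194 CPM in Eya1cKO, on either side of the controls (log2 fold change 0.06, SE 0.11, adjusted p = 0.77). Mmp9, the scarcer gelatinase, measured 3.58 and 4.91 CPM against 21.5 and 7.75 CPM (1.85, SE 0.59, adjusted p = 0.099). Both Eya1cKO libraries were above the controls, and most of the difference came from Eya1cKO 1. Without that library the log2 fold change of Mmp9 was 0.85.

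Mmp11, the stromelysin that furin activates inside the cell, gave 48.1 and 46.3 CPM in the controls and 41.9 and 53.1 CPM in Eya1cKO (log2 fold change -0.01, SE 0.18, adjusted p = 0.99), and the controls lay between the Eya1cKO libraries. Mmp19, which is not grouped with the classical MMPs, measured 1.29 and 0.881 against 9.69 and 1.94 CPM (2.54, SE 0.92, adjusted p = 0.13). Here Eya1cKO 1 alone stood far from the others, and without it the log2 fold change of Mmp19 was 0.83. Of the exonic length of Mmp19, 28.3% overlaps opposite-strand exons of other genes, of which Tmem198b had 342, 494, 459 and 197 reads. Mmp28 had between 16 and 68 reads per library (0.07, SE 0.79).

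**Figure D3:**
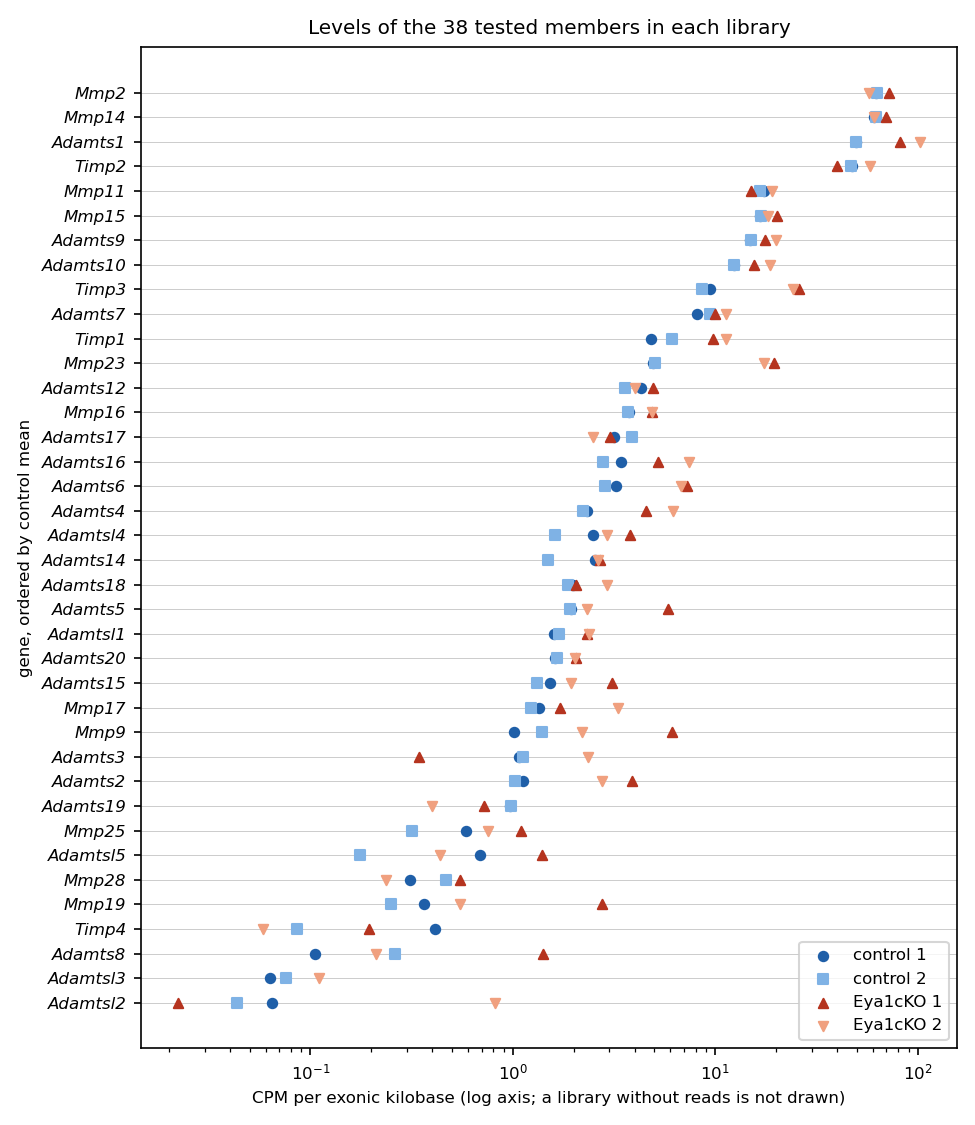
Levels of the 38 tested members in CPM per exonic kilobase (log axis), 1 symbol per library, ordered by the control mean. Mmp2, Mmp14, Adamts1 and Timp2 form the top of the order, and the red symbols of Timp3, Mmp23 and Adamts1 are set apart to the right of the blue ones.

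Of the 7 ADAMTS genes that cut proteoglycans of the versican and aggrecan type, only Adamts1 passed the adjusted threshold. The 7 fitted log2 fold changes were above 0 (median 0.89), 5 of them at an unadjusted p under 0.05 (14.2% of all tested genes were higher at that p), and Adamts8 overlapped between genotypes. Adamts1 (chr16:85793827-85803113, minus strand) cleaves versican and aggrecan, and its loss in mice is known to disturb the outflow region of the kidney. It had 9192 and 9810 reads in the controls and 9822 and 9530 in Eya1cKO, or 263 and 262 against 435 and 543 CPM. The raw reads were alike because the Eya1cKO libraries were shallower, and after scaling both lay well above both controls. The level rose 1.86-fold, from 263 ± 0.87 to 489 ± 76.8 CPM (SD, n = 2 each; log2 fold change 0.89, SE 0.11, adjusted p = 0.0057, edgeR).

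Adamts4 and Adamts5 are the classical aggrecanases. Adamts4 measured 11.1 and 10.7 CPM in the controls and 21.8 and 29.8 CPM in Eya1cKO (log2 fold change 1.22, SE 0.31, adjusted p = 0.054). Adamts5 measured 20.9 and 20.6 against 63.3 and 25.0 CPM (1.15, SE 0.40, adjusted p = 0.11). Neither overlapped between genotypes, and for Adamts5 Eya1cKO 2 exceeded the controls by little. Adamts9, a broadly expressed versican-cleaving enzyme of the GON subgroup, measured 224 and 227 against 265 and 301 CPM (0.32, SE 0.09, adjusted p = 0.073). Its close relative Adamts20 measured 14.5 and 14.8 against 18.5 and 18.3 CPM (0.33, SE 0.29, adjusted p = 0.49). In neither did the genotypes overlap, and for Adamts9 Eya1cKO 1 was about as far from Eya1cKO 2 as from the controls. Adamts15, also a versican cleaver, measured 15.8 and 13.6 against 32.1 and 20.1 CPM (0.87, SE 0.32, adjusted p = 0.13), and Adamts8 had between 17 and 146 reads per library (2.24, SE 1.0). Without Eya1cKO 1 the log2 fold change of Adamts8 was 0.17 and that of Adamts5 was 0.26.

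Among the procollagen N-proteinases, which trim the amino end of fibrillar procollagens, Adamts2 was higher. Adamts2 (chr11:50602084-50807573, plus strand) acts on procollagens I, II and III. It had 366 and 356 reads in the controls and 813 and 450 in Eya1cKO, or 10.5 and 9.51 against 36.0 and 25.7 CPM. Both Eya1cKO libraries were above the controls, Eya1cKO 1 by more. It rose 3.14-fold, from 9.99 ± 0.69 to 30.8 ± 7.30 CPM (SD, n = 2 each; log2 fold change 1.65, SE 0.30, adjusted p = 0.0205, edgeR). With the replicate number as a block it did not pass (adjusted p = 0.068). Adamts14, which shares this activity, measured 13.3 and 7.72 against 14.0 and 13.6 CPM (0.41, SE 0.41, adjusted p = 0.55), with control 1 close to the Eya1cKO libraries. Adamts3, known for the activation of VEGFC, was not ordered by genotype, at 5.81 and 6.06 against 1.86 and 12.7 CPM.

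In the remaining ADAMTS class Adamts6 was higher. Adamts6 (chr13:104287835-104496695, plus strand) encodes an enzyme tied to cell adhesion and to fibrillin microfibrils. It had 880 and 828 reads in the controls and 1271 and 923 in Eya1cKO, or 25.2 and 22.1 against 56.2 and 52.6 CPM. The genotypes were well apart and the libraries of each were close. It rose 2.31-fold, from 23.7 ± 2.18 to 54.4 ± 2.57 CPM (SD, n = 2 each; log2 fold change 1.21, SE 0.19, adjusted p = 0.0122, edgeR). With the replicate block it did not pass (adjusted p = 0.062).

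Adamts10, the relative of Adamts6 that assists fibrillin assembly, measured 102 and 103 CPM in the controls and 128 and 154 CPM in Eya1cKO (log2 fold change 0.45, SE 0.12, adjusted p = 0.067). Adamts16 measured 23.4 and 19.1 against 35.5 and 50.7 CPM (log2 fold change 1.0, SE 0.26, adjusted p = 0.058). In neither gene did the genotypes overlap. Adamts18, the partner of Adamts16 in sequence, measured 20.3 and 19.0 against 20.9 and 29.8 CPM (0.34, SE 0.28, adjusted p = 0.46). Adamts7 measured 51.2 and 59.1 against 62.4 and 70.7 CPM (0.26, SE 0.16, adjusted p = 0.33), and Adamts12, which like Adamts7 is known to cut cartilage oligomeric matrix protein, 47.1 and 39.2 against 53.5 and 43.7 CPM (0.19, SE 0.19, adjusted p = 0.57). Adamts12 was the member of this class whose genotypes overlapped.

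Of the 38 tested members, Adamts17 and Adamts19 had both Eya1cKO libraries below both controls. Adamts17, a further microfibril-associated enzyme, measured 24.6 and 30.1 CPM against 23.5 and 19.2 CPM (log2 fold change -0.35, SE 0.26, adjusted p = 0.42). Adamts19, known from heart valve development, measured 13.5 and 13.7 against 10.1 and 5.59 CPM (-0.75, SE 0.41, adjusted p = 0.28). Neither passed the test.

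The ADAMTS-like genes gave no call, with log2 fold changes of -0.52 to 2.78. Adamtsl1 measured 20.4 and 21.6 CPM in the controls and 29.7 and 30.4 CPM in Eya1cKO (0.51, SE 0.23, adjusted p = 0.19). Adamtsl4, a component of the fibrillin-rich fibres that hold the lens, measured 10.4 and 6.76 against 16.0 and 12.3 CPM (0.75, SE 0.40, adjusted p = 0.27). Both had Eya1cKO libraries above the controls. Adamtsl2, Adamtsl3 and Adamtsl5 overlapped between genotypes.

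In the controls the order of levels per exonic kilobase was led by Mmp2 (62.3 ± 0.44 CPM per kilobase, SD, n = 2) and Mmp14 (61.4 ± 1.38), which did not differ beyond their spread. Adamts1 (49.5 ± 0.16) and Timp2 (47.1 ± 0.36) followed, and a wide gap separated them from Mmp11 (17.0 ± 0.46), Mmp15 (16.8 ± 0.09) and Adamts9 (15.0 ± 0.13). Mmp11 and Mmp15 did not differ beyond their spread. Next came Adamts10 (12.4 ± 0.02), Timp3 (9.0 ± 0.55) and Adamts7 (8.78 ± 0.89), the last pair again within their spread, and each of the other tested members was below 6.

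In Eya1cKO the order began with Adamts1 (92.2 ± 14.5 CPM per kilobase), ahead of Mmp14 (65.0 ± 6.38), Mmp2 (64.6 ± 9.97) and Timp2 (49.0 ± 12.5), and the spreads of Mmp14, Mmp2 and Timp2 overlapped in part. Timp3 (25.0 ± 1.18) moved from rank 9 to rank 5 and Mmp23 (18.4 ± 1.5) from rank 12 to rank 8. The level of Mmp23 then lay beside those of Mmp15 (19.2 ± 1.38) and Adamts9 (18.8 ± 1.67), within their spread. The ordering is a description of 2 libraries per genotype and was not tested.

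Summed over all 50 members, levels were 351 and 350 CPM per kilobase in the controls and 469 and 482 in Eya1cKO. The proteoglycan-cutting ADAMTS genes summed to 72.0 and 71.8 in the controls and 117 and 135 in Eya1cKO, 1.75 times the control mean, and Adamts1 alone held 43.4% and 43.6% of the summed Adamts level in the controls and 47.6% and 52.1% in Eya1cKO. The summed Mmp level, 169 and 171 in the controls, was 213 and 185 in Eya1cKO, or 1.17 times. Mmp14 and Mmp2 together held 72.4% and 73.1% of it in the controls and 66.2% and 63.8% in Eya1cKO. The ratio of summed Timp to summed Mmp levels was 0.366 and 0.360 in the controls and 0.355 and 0.504 in Eya1cKO, so that the Eya1cKO libraries lay on either side of the controls. Sums were not tested.

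**Figure D4:**
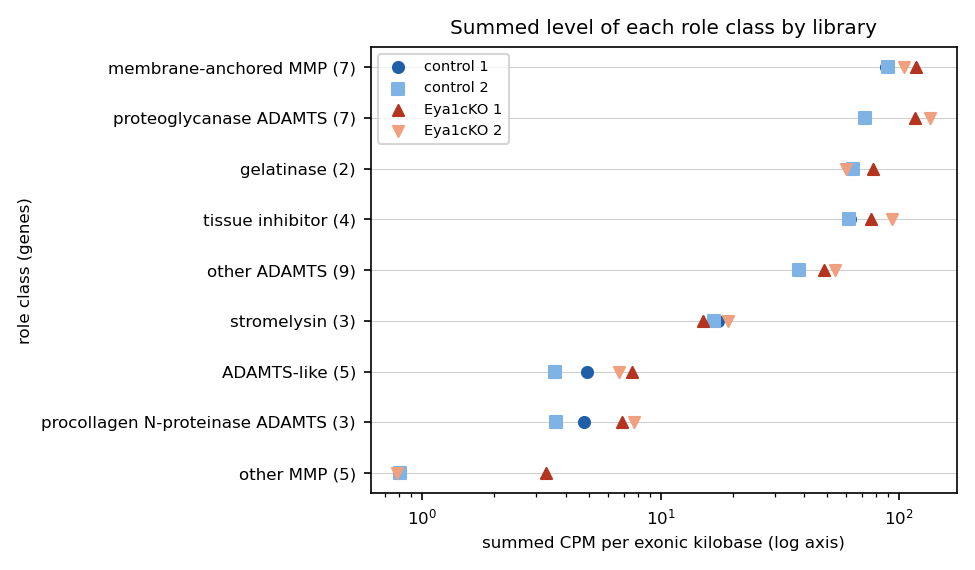
Summed CPM per exonic kilobase (log axis) of the role classes with more than trace levels, 1 symbol per library, with the number of genes in each class in brackets. The proteoglycanase ADAMTS class shows both Eya1cKO libraries (117 and 135) clear of both controls (72.0 and 71.8), while the gelatinases and the stromelysins show an Eya1cKO library on either side of the controls.

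The Eya1cKO libraries differed from each other more than the controls did. Levels differed over 2-fold between the 2 Eya1cKO libraries for 10 of the 38 members (26.3%) and between the controls for 3 (7.89%), where 34.7% and 12.6% of all tested genes did so. The median absolute log2 ratio of the members was 0.42 within Eya1cKO and 0.13 within Control, against 0.58 and 0.18 over all tested genes. Eya1cKO 1 was the higher library in 7 of the 10 members, among them Mmp19, Mmp9 and Adamts5, and Eya1cKO 2 in Adamts3, Adamtsl2 and Adamtsl3, the last with 0 reads in Eya1cKO 1 and 15 in Eya1cKO 2. These examples were chosen after their values were seen. Adamtsl2, mutated in a skeletal dysplasia with microfibril defects, had 18 and 13 reads in the controls and 4 and 115 in Eya1cKO, so its log2 fold change of 2.78 (SE 1.34, adjusted p = 0.21) rested on Eya1cKO 2 and was -1.27 without it.

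**Figure D5:**
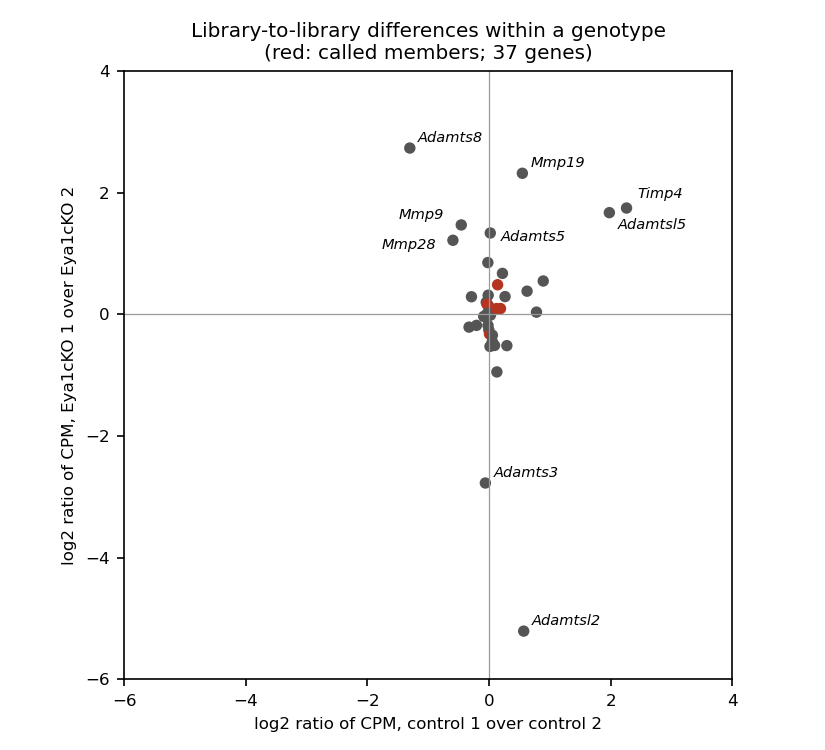
Log2 ratio of CPM between the 2 controls (x axis) and between the 2 Eya1cKO libraries (y axis) for the 37 tested members with reads in every library, with the 5 called members in red. The points spread further along the y axis than along the x axis, and none of the 5 called members differs over 2-fold on either axis.

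The 12 members below the filter on low counts had at most 38 reads in any library. The limit of detection was set at 3 reads, or 0.0801 to 0.171 CPM per library; 5 of the 12 did not exceed it in any library and 7 did in at least 1. Mmp1b, Mmp3, Mmp7 and Mmp27 had no read in any library and Mmp10 had 1 in all. Mmp13, a collagenase of growth plate and bone, had 14 and 13 reads in the controls and 6 and 0 in Eya1cKO, and Mmp8, the neutrophil collagenase, 7, 0, 0 and 11. Adamts13, which cuts von Willebrand factor, had 12 and 13 reads in the controls and none in Eya1cKO, at least 2.27-fold lower against the 3-read limit per library, and Mmp21, known from left-right patterning, had 7 and 9 against none (at least 1.45-fold lower). Mmp12, the macrophage elastase, had 13 reads in control 1 alone. Mmp24, a membrane-anchored protease, had 38 of its 43 reads in Eya1cKO 1, and Mmp20, the enamel protease, had 5 reads in control 1 alone. These 12 had no test in the fit reported here, and the limits cover counting error only.

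Genes that act with the members were read from the same fit, in lists made with earlier results of these data known. The shares called in these lists are therefore a description and not independent support. Of 74 such genes in 8 lists 68 were tested, with 19 higher (27.9%, where 5.15% of all tested genes were) and 5 lower (7.35%, where 4.41% were) and a median log2 fold change of 0.49 (0.02 over all tested genes). These shares over all tested genes are also the background of each list count that follows. Of the procollagens that the N-proteinases cut, 5 of 6 were higher, among them Col3a1 (964 ± 1.61 to 2422 ± 13.3 CPM; log2 fold change 1.33), Col1a2 (1.70) and Col1a1 (1.15), and Col2a1, the cartilage collagen, was lower (-2.12). The C-proteinase list, which completes procollagen trimming, had 2 of 4 higher: the enhancer Pcolce (1.25, adjusted p = 0.0041) and the protease Bmp1 (0.68, adjusted p = 0.0197). Versican itself (Vcan), the main proteoglycan substrate in this set, was lower, with 50647 and 52778 reads in the controls and 15082 and 13754 in Eya1cKO (1430 ± 28.9 to 726 ± 82.4 CPM; -0.98, adjusted p = 0.0013, edgeR). Acan, which encodes aggrecan, was higher from a very low level (0.396 ± 0.20 to 6.26 ± 2.59 CPM), so that of 7 tested hyalectan and link protein genes 1 was higher and 1 lower.

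Of 12 microfibril genes 3 were higher, Eln (elastin; log2 fold change 1.55), Fbn1 (fibrillin-1; 0.67) and Ltbp4 (0.78), and 1 was lower, Thsd4 (-0.46), an ADAMTS-like protein by structure; Fbn2, another fibrillin, measured 860 ± 13.8 against 814 ± 43.9 CPM. Among 11 tested activating proteases and their inhibitors 3 were higher: Plat (tissue plasminogen activator; 0.73), Serpinf2 (antiplasmin; 2.99) and the proprotein convertase Pcsk6 (1.25). Of 10 tested regulators outside the Timp family, Lrp1, an endocytic receptor that clears TIMP3 and several of the proteases, was higher (0.44, adjusted p = 0.0099). Spock2, a testican proteoglycan, was lower, with 15138 and 17249 reads in the controls and 1861 and 619 in Eya1cKO (-2.87, adjusted p = 0.0016). Of 11 tested ADAM proteases Adam12 (0.88) and Adam19 (0.49) were higher and Adam11 (-1.46) was lower, and Adam10, a widely expressed sheddase, measured 218 ± 3.38 against 206 ± 17.2 CPM. Among 7 other substrates and partners Ccbe1, the cofactor of Adamts3 (1.33), and Sdc2, a cell-surface proteoglycan (0.89), were higher. Col2a1 and Thsd4 were named after their values were seen.

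To show the sequence upstream of the called members, the bases before their start sites were taken from RefSeq (GRCm38.p6), which listed a promoter for 35 of the 50 members and 4 of the 5 called ones; Adamts6 is not shown. Capitals mark matches, on either strand, to any of 4 short motifs. The GC box, to which Sp1 and related factors bind, was searched as GGGCGG. The TATA box, which helps to place the start of transcription, was searched as TATAAA. The AP-1 site, known from the promoters of several MMP genes, was searched as TGANTCA. The MEF3 site, the element of the homeodomain partners of Eya1, was searched as TCAGGTTTC, and none of these letter strings overlaps another in the windows shown. Timp3 is shown at chr10:86300162-86300371 on the plus strand, Adamts1 at chr16:85803114-85803363 on the minus strand, Adamts2 at chr11:50601835-50602083 on the plus strand and Mmp23 at chr4:155653385-155653634 on the minus strand, each 5′ to 3′.
Timp3: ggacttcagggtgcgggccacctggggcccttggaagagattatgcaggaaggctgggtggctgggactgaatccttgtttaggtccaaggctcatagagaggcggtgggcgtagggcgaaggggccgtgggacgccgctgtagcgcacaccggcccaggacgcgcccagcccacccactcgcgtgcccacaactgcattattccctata
Adamts1: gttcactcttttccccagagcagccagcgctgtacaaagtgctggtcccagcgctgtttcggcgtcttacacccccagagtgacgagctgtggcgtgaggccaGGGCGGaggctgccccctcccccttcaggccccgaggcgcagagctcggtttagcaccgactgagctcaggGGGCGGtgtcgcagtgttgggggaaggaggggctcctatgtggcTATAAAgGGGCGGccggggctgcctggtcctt
Adamts2: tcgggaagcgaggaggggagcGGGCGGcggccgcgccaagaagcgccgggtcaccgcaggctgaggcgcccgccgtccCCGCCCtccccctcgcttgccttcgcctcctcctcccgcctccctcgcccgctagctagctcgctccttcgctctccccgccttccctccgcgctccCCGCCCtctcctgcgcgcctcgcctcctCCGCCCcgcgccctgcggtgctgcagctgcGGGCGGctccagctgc
Mmp23: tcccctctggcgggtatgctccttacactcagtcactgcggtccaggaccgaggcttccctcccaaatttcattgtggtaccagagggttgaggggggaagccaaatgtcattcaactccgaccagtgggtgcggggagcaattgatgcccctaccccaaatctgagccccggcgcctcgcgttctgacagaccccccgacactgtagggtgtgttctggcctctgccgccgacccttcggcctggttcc
The 4 windows had no arrangement in common. Adamts1 held 3 GC boxes and 1 TATA box, which stood directly before the last GC box. Adamts2 held 5 GC boxes in a window of 77.9% G and C. Mmp23 held no match to any of the letters searched, and the only match in the 250 bases of Timp3, 1 GC box, lay in the 40 bases nearest its start, which are annotated as transcribed and are not printed here. Over windows of 250 bases a GC box occurred in 20 of the 35 members and in 32.7% of 32851 RefSeq promoters, a TATA box in 9 and 12.4%, an AP-1 site in 7 and 6.75%, and a MEF3 site in 1 and 0.387%. A member was counted if any of its listed promoters held a match, while the background counted each promoter separately. The member counts and the background shares are therefore not like for like. A match describes letters in the window and not a binding site.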

How the data were processed

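RNA-seq counts of 4 libraries (2 Control, 2 Eya1cKO) were analysed. Per the paper's methods, the authors purified mRNA, made random-primed stranded SMARTer libraries, read them single-end, mapped them to mm10 with HISAT2, and counted with HTSeq-count on Ensembl release 90; the strand setting is not given in the sources used here. The deposited values are these raw counts. The authors tested them with DESeq2. The labels and the methods describe the numbers of kidneys and females differently.

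Lines that name no gene were kept out of totals and tests. Symbols for 52403 of 52636 identifiers and exonic lengths came from GENCODE M21 (GRCm38). Counts were filtered with filterByExpr (minimum 10), scaled with TMM factors and tested with edgeR 4.0.16 in R 4.3.3 (quasi-likelihood, all 4 libraries, genotype only, Benjamini-Hochberg); the steps were tested on simulated data. Standard errors were obtained from the fold change and the F statistic (its square root). CPM used the scaled totals of tested genes. Limits of 3 reads cover counting error only. Alternatives were other scaling, filters, tests (DESeq2 1.42.0), a replicate block, thinning to 17457452 reads and leaving out each library.

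Members and lists were chosen with earlier results of these data known. Values are given for called members, members of at least 10 CPM on average, all Timp genes and the leading member of each class; of each companion list, the counts and at most the 3 genes of smallest p and the 1 of highest mean CPM. Mmp9, Mmp25, Mmp28, Adamts3, Adamts8, Adamtsl2, Adamtsl3 and the untested members were named after their values were seen.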

Additional observations from a re-analysis of the deposited data

How the results depend on the processing

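The count of members higher in Eya1cKO (5) was the same with RLE size factors, with no low-count filter, with the legacy quasi-likelihood test and after thinning, and was 7 with library totals alone (Adamts4 and Adamts9 added), 8 with at least 10 counts in every library (Adamts4, Adamts10 and Adamts16 added) and 10 with DESeq2's Wald test (those 4 and Mmp9 added); the 5 were among the calls in each of these fits. The counts gave no sign of a shared effect of replicate number (the control difference correlated with the Eya1cKO difference at r = 0.0062 over 19041 genes). Whether libraries of the same number were handled together is not given, and this correlation cannot settle it. With the replicate block 3 members were called (Adamts1, Mmp23 and Timp3), with adjusted p = 0.068 for Adamts2 and 0.062 for Adamts6 (edgeR). Leaving out 1 library at a time gave 0 to 19 members higher, 0 to 2 lower, 3 to 48 companion genes called (24 in all 4 libraries) and 23 to 7925 of all genes (1820 in all 4). Of the companion genes 16 were called with the replicate block, 16 with no filter, 17 with the legacy test and 17 after thinning. Calls over all genes numbered 1055 with no filter, 1096 with the legacy test, 1156 after thinning, 621 with the replicate block (358 higher, 263 lower) and 2702 with DESeq2, and no filter moved the median log2 fold change of all genes to -0.21. Mmp11 changed sign around 0, to 0.0040 with RLE factors, 0.032 with library totals, 0.021 with DESeq2 and 0.0096 with the legacy test, and its range with 1 library left out was -0.19 to 0.16. Ranges with 1 library left out also crossed 0 for Adamtsl2 (-1.27 to 3.91), Adamtsl3 (-7.11 to 0.65), Adamts3 (-1.69 to 1.09), Timp2 (-0.25 to 0.29), Timp4 (-2.07 to 0.62), Mmp2 (-0.13 to 0.19), Mmp14 (-0.033 to 0.16) and Mmp28 (-0.75 to 0.47); for Adamts3 and Timp2 both ends passed the threshold in opposite directions, the lowest without Eya1cKO 2 (adjusted p = 0.0197 and 0.022) and the highest without Eya1cKO 1 (adjusted p = 0.0175 and 0.0063). Among the scarce members Timp4, Adamtsl2 and Adamtsl3, with at most 115 reads in any library, had standard errors of 1.08 to 1.39 on the log2 scale. The cause of each change was not tested.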
